A study of Mus musculus with 18 samples.

Results

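The 7 genes described here mark or build the surface ectoderm, the single-layered epithelium that covers the embryo: Grhl2, Grhl3, Trp63, Tfap2c, Krt8, Krt18 and Esrp1. They were chosen by symbol, as the rows of the deposited gene table whose Ensembl identifier maps to these names, and all 7 were found among its 53465 gene identifiers. The libraries came from mouse embryos at embryonic day 9 with 20 to 24 somites. There were 5 control embryos and 4 embryos in which both Meis1 and Meis2, homeobox genes of axial patterning, had been deleted conditionally with Delta1Cre. The latter are called DKO below. Each embryo was cut into a posterior piece, the axial bud with its youngest somites, and an anterior piece, the older part of the axis that bears somites, and each piece gave 1 poly(A) RNA-seq library. Each region thus had a control group of 5 libraries and a DKO group of 4. The labels do not say which alleles the control embryos carry. Delta1 (Dll1) is a gene of the presomitic mesoderm and of neural progenitors, and which cells of these embryos had been recombined was not measured.

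During neural tube closure the surface ectoderm meets and fuses over the neural folds as they join. Grainyhead-like transcription factors of the Grhl family switch on junction and barrier genes in this epithelium, and loss of Grhl2 or Grhl3 in the mouse leaves the neural tube open. Trp63 encodes p63, which commits simple ectoderm to a stratified epidermal fate. Tfap2c encodes the AP-2 gamma factor of early ectoderm. Krt8 and Krt18 encode the keratin pair that forms the filaments of simple epithelia, in the ectoderm but also in gut, yolk sac, mesothelium and ducts. Esrp1 encodes an RNA-binding protein that sets the epithelial pattern of alternative splicing.

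Totals ranged from 12.7 to 38.2 megacounts (M, expected counts) per library. Levels are given as counts per megacount of the library (CPM) after TMM scaling, which corrects for differences in library composition, and 3 counts, the floor of detection used here, correspond to 0.0786 to 0.237 CPM. Every member was above that floor in every library, with 8 counts of Grhl3 in anterior DKO replicate 2 as the lowest value. Replicate numbers name embryos, so replicate 1 of both control groups is the same embryo. Control embryo 1 is labelled female, yet its pieces held abundant Y-linked transcripts and almost no Xist, so it did not match its sex label, and results that turn on it are given without it. Meis1 was lower in DKO by 0.30 (anterior, adjusted p = 0.123) and 0.55 (posterior, adjusted p = 0.336) on the log2 scale, and Meis2 by 0.41 (adjusted p = 0.0522) and 0.52 (adjusted p = 0.196), so that neither gene passed the threshold of 0.05 in edgeR's quasi-likelihood test. DESeq2 called both in both regions (adjusted p = 0.00747 and 0.0444 for Meis1, 1.31e-07 and 0.000442 for Meis2), and limma-voom called Meis2 in the anterior piece (adjusted p = 0.0435). DKO and control libraries did not overlap for Meis2 in either region and for Meis1 in the anterior piece. Reads per gene do not show whether a deleted exon was missing, and both genes remained well above the floor in all DKO libraries.

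The positions of the 7 genes are given on GRCm38. Grhl2 (ENSMUSG00000022286) is on chromosome 15 from 37233036 to 37363569, plus strand. Grhl3 (ENSMUSG00000037188) is on chromosome 4 from 135541888 to 135573630, minus strand. Trp63 (ENSMUSG00000022510) is on chromosome 16 from 25683763 to 25892102, plus strand. Tfap2c (ENSMUSG00000028640) is on chromosome 2 from 172549593 to 172558622, plus strand. Krt8 (ENSMUSG00000049382) and Krt18 (ENSMUSG00000023043) are neighbours on chromosome 15, from 101996698 to 102004482 on the minus strand and from 102028180 to 102032027 on the plus strand. Their starts face each other across 23697 bases with 0 other protein-coding genes of the table between them. Esrp1 (ENSMUSG00000040728) is on chromosome 4 from 11331933 to 11386783, minus strand. Genes that overlap the members on the opposite strand and were counted in the table were low. The highest was Gm16136, which overlaps Grhl2 by 274 bases and had 15 to 63.01 counts per library. The Krt8 pseudogene Krt8-ps had at most 1.62 counts. Strand use in counting is not given in the sources used here.

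The upstream sequences of the 2 keratin genes are shown because these neighbours had the most similar profiles of all member pairs. RefSeq promoter windows (GRCm38.p6, 250 bases before to 50 after a start) were given for 3 of the 7 members, Grhl3, Krt8 and Krt18, and only bases before every annotated start are printed, on the strand of the gene, 5′ to 3′, at chr15:102004483-102004592 for Krt8 and chr15:102027966-102028179 for Krt18. Capitals mark AGGTCA, the half-site of nuclear receptors, and GCCNNNGGC, the AP-2 motif.
Krt8: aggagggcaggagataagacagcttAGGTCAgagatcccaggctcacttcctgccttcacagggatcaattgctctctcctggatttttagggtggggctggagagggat
Krt18: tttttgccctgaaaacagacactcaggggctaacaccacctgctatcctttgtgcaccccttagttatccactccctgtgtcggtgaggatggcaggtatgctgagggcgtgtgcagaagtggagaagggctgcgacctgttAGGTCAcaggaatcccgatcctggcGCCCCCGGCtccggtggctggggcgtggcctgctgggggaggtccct
Each of these 2 sequences holds 1 AGGTCA, from -225 to -220 in Krt8 and from -108 to -103 in Krt18, counted from the RefSeq start. This motif was searched after the sequences had been read, and 16.3% of all 32851 windows hold it on one strand or the other. The AP-2 motif was found as GCCCCCGGC from -83 to -75 in Krt18, and 16.6% of windows hold it. The grainyhead motif AACNNGTT (4.20% of windows) and the Meis motif TGACAG (19.2% of windows) had no match in any of the 3 windows, and none of the 4 motifs matched in the Grhl3 window. The motifs do not overlap one another in these windows, and both strands were searched.

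Compared per kilobase of exon, the 2 keratins stood far above the other members in every group. In anterior controls, Krt8 had 21.0 ± 10.1 CPM per kb (SD, n = 5) and Krt18 19.1 ± 6.68, while Tfap2c, the next, had 1.56 ± 0.566. The order then ran through Esrp1 (1.25 ± 0.316), Trp63 (0.956 ± 0.395) and Grhl2 (0.589 ± 0.177) to Grhl3 (0.481 ± 0.122). Among these 5 genes the libraries of each overlapped those of the next, whereas no library of Krt18 came down to Tfap2c. The order in anterior DKO was the same below the keratins, with Krt18 (22.1 ± 7.17, n = 4) and Krt8 (21.9 ± 6.55) overlapping at the top. The lowest place was more distinct there, with Grhl3 at 0.325 ± 0.136 CPM per kb and no overlap with Grhl2 at 0.694 ± 0.201.

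The order differed in the posterior piece, where Esrp1 and Grhl3 stood above Tfap2c. In posterior controls, Krt8 (42.8 ± 7.67 CPM per kb, n = 5) and Krt18 (38.5 ± 7.76) were followed by Esrp1 (3.10 ± 0.466), Grhl3 (2.49 ± 0.753), Tfap2c (1.64 ± 0.338), Trp63 (1.46 ± 0.184) and Grhl2 (1.25 ± 0.163). From Esrp1 downwards each gene overlapped the next. The posterior DKO libraries kept this order, with Krt8 at 66.4 ± 9.99 and Krt18 at 54.0 ± 9.09 CPM per kb (n = 4). In that group Tfap2c (2.05 ± 0.153) did not overlap Trp63 (1.59 ± 0.270).

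**Figure D1:**
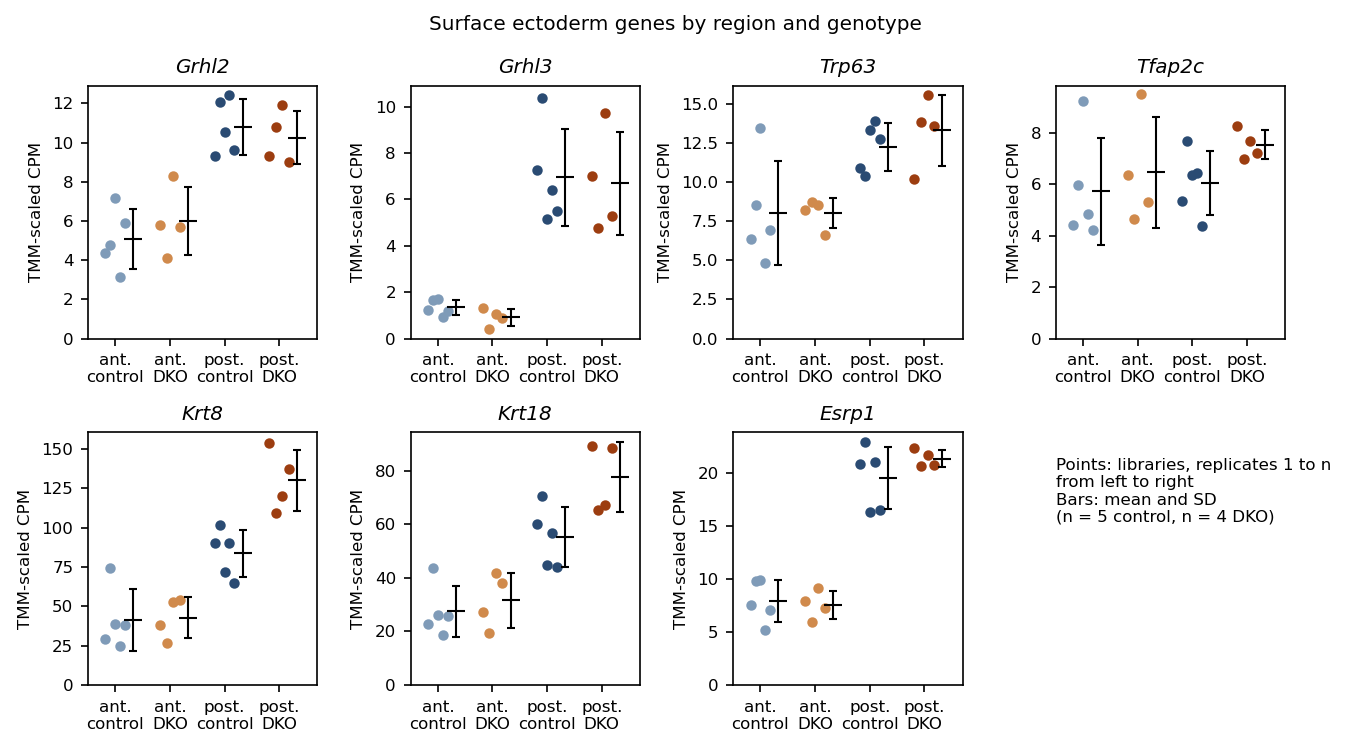
TMM-scaled CPM (y axis, linear, from 0) of the 7 genes in each library, by region and genotype (x axis). Points are libraries and bars are the mean and SD (n = 5 control, n = 4 DKO). Grhl3, Esrp1 and both keratins were higher in posterior than in anterior groups of each genotype on average, Tfap2c lay in the same range in all 4 groups, and Krt8 in posterior DKO (109 to 154 CPM) lay above all posterior controls (64.7 to 101 CPM).

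Deletion of Meis1 and Meis2 was set against control in each region to ask whether surface ectoderm genes respond to it. None of the 7 genes passed the threshold of edgeR in either region. Of all genes tested, edgeR called 0.0394% in the anterior piece (6 of 15238) and 0.0126% in the posterior piece (2 of 15936), so few calls were made on any gene. The 2 keratins had the largest differences in the posterior piece, where DKO embryos had more of both. Krt8 was the only member whose DKO and control libraries did not overlap.

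In the anterior piece no member reached an unadjusted p below 0.05, against 13% of all genes, and no member had groups without overlap, against 5.08% of all genes. The median log2 fold change of the 7 was 0.05, beside 0.00 for all genes, their adjusted p-values lay between 0.519 and 0.994, and DESeq2 called 0 of them too. Grhl3, the factor of surface ectoderm and later of the skin barrier, had the largest difference. Its controls were at 1.25, 1.67, 1.71, 0.920 and 1.17 CPM and its DKO libraries at 1.32, 0.412, 1.04 and 0.864. The groups overlapped, with the lowest value in DKO replicate 2 and a difference of -0.54 (95% interval -1.25 to 0.17, adjusted p = 0.519). Grhl2 went from 5.07 ± 1.53 to 5.98 ± 1.73 CPM, a difference of 0.24 (interval -0.29 to 0.78). The ratio of Grhl2 to Grhl3 per kilobase was 0.926 to 1.64 in anterior controls and 1.42 to 3.24 in anterior DKO. In posterior libraries it was 0.376 to 0.663 in controls and 0.397 to 0.730 in DKO.

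Anterior Trp63 had a wide spread among controls. They were at 6.34, 8.56, 13.5, 4.83 and 6.93 CPM, whereas the DKO libraries stood close together at 8.23, 8.70, 8.55 and 6.64. The means were almost equal, 8.02 and 8.03 CPM, with a difference of 0.01 (interval -0.53 to 0.54). Tfap2c differed by 0.17 (interval -0.41 to 0.75), Krt18 by 0.19 (interval -0.38 to 0.77) and Esrp1 by -0.07 (interval -0.49 to 0.35). Krt8 was at 28.9, 74.6, 38.8, 24.7 and 38.4 CPM in controls and 38.3, 26.7, 52.5 and 53.7 in DKO. Its second control was the highest of the 9, and the difference was 0.05 (interval -0.62 to 0.72). Without control embryo 2 it was 0.39 (adjusted p = 0.476).

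In the posterior piece 2 of the 7 members, Krt8 and Krt18, had an unadjusted p below 0.05, against 11% of all genes. Krt8 controls were at 90.4, 101, 71.9, 90.1 and 64.7 CPM, and DKO libraries at 154, 109, 120 and 137. Every DKO library was above every control, which held in either direction for 4.27% of all genes. The difference was 0.63 (SE 0.135, 95% interval 0.34 to 0.93, adjusted p = 0.197 in edgeR), a ratio of 1.55. DESeq2, run on the same counts, gave Krt8 an adjusted p of 0.00306 and so called it. Over all alternatives the adjusted p of Krt8 ran from 0.00306 to 0.534, the highest without DKO embryo 1, where the difference was 0.54.

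Krt18, the partner of Krt8 in the filament, was at 60.2, 70.8, 44.8, 56.9 and 44.3 CPM in posterior controls and at 89.2, 65.4, 67.3 and 88.7 in posterior DKO. The second control lay within the DKO range and the other 4 controls below it. The difference was 0.48 (SE 0.150, interval 0.16 to 0.81, adjusted p = 0.369), and no alternative called it (lowest adjusted p = 0.0999, with DESeq2). Tfap2c was at 5.35, 7.69, 6.36, 6.43 and 4.39 CPM in controls and 8.25, 6.98, 7.69 and 7.22 in DKO, with overlap and a difference of 0.31 (interval -0.03 to 0.65, adjusted p = 0.475).

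The other 4 members were closer to 0 in the posterior piece. Esrp1 controls were at 20.8, 22.9, 16.3, 21.0 and 16.6 CPM, and the DKO libraries all between 20.7 and 22.3. Its difference was 0.12 (interval -0.12 to 0.37). Trp63 differed by 0.12 (interval -0.19 to 0.42), Grhl2 by -0.08 (interval -0.35 to 0.20) and Grhl3 by -0.06 (interval -0.61 to 0.48). The median of the 7 was 0.12, beside 0.01 for all genes tested. These intervals leave room for changes of moderate size in either direction, widest for Grhl3.

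Whether the DKO difference itself varied between regions was tested over all 18 libraries. It did so for none of the 7 members (adjusted p = 0.999 for each), and edgeR called 0% of the 16428 genes tested, with 567 at an unadjusted p below 0.05. DESeq2 called 10 genes and no member. For Krt8 the posterior difference exceeded the anterior one by 0.58 (interval -0.18 to 1.34), and for Krt18 by 0.29 (interval -0.39 to 0.97).

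**Figure D2:**
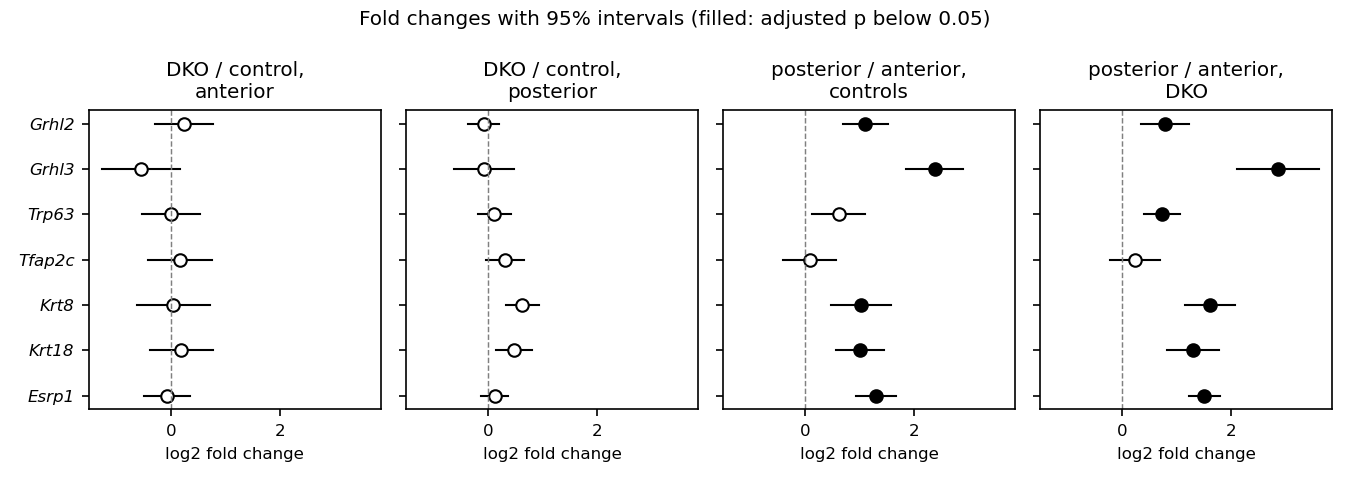
Log2 fold changes (x axis) of the 7 genes (y axis) in 4 comparisons, with 95% intervals as lines. Filled circles passed an adjusted p of 0.05 in edgeR: none in the DKO comparisons, 5 between regions in controls and 6 in DKO.

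Keratins 8 and 18 are also abundant in yolk sac endoderm, and 8 genes of that tissue were read beside them. The summed level of these genes was 6.15 to 12.8 CPM in posterior controls and 6.73 to 40.0 CPM in posterior DKO, highest in DKO replicate 1. In anterior controls it was 2.15 to 27.2 CPM, highest in replicate 2, and in anterior DKO 2.63 to 12.9. Of the 8 genes 5 were tested in the posterior piece, and 0 were called by edgeR and 1 (Rbp4, a retinol carrier) by DESeq2. Of the 5, 3 had an unadjusted p below 0.05 in edgeR and a higher mean in DKO. Of all genes 11% had such a p in either direction. Afp, the fetal serum protein of yolk sac and liver, was at 18.9 CPM in posterior DKO replicate 1 and 8.21 CPM in anterior control replicate 2. In each of the 4 groups the library with the highest sum also had the highest Krt8: anterior control 2 (74.6 CPM), anterior DKO 4 (53.7 CPM), posterior control 2 (101 CPM) and posterior DKO 1 (154 CPM). Posterior DKO replicate 2, with the second highest sum of its group at 22.1 CPM, had the lowest Krt8 of that group at 109 CPM. Posterior DKO replicate 3, with a sum of 6.73 CPM, within the range of the posterior controls, had 120 CPM of Krt8, above all posterior controls. The part of yolk sac RNA in the keratin difference was not tested.

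**Figure D3:**
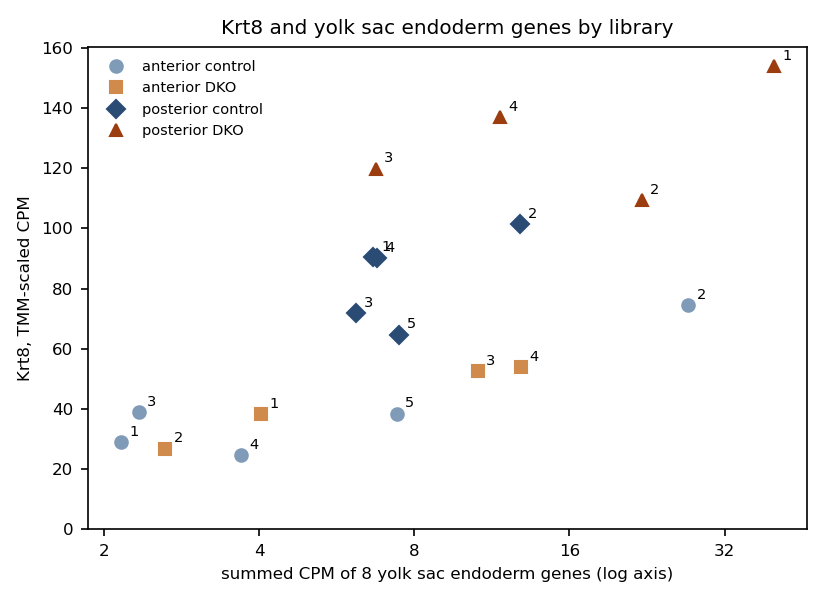
Krt8 level (y axis, CPM) against the summed CPM of 8 yolk sac endoderm genes (x axis, log scale) in the 18 libraries, numbered by replicate. Posterior DKO replicate 3 had a sum of 6.73 CPM and 120 CPM of Krt8, and anterior control replicate 2 had 27.2 and 74.6 CPM.

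Marker genes of 3 other epithelial tissues were read in the same way. The 6 nephric duct genes summed to 83.6 to 96.2 CPM in posterior controls and 49.2 to 73.6 CPM in posterior DKO. There 5 of 6 had an unadjusted p below 0.05 in edgeR and were lower, with 0 called by edgeR and 5 by DESeq2. Of all genes 11% had such a p in the posterior piece and 13% in the anterior piece, in either direction. Pax2, a transcription factor of the duct, had 11.4 ± 1.12 CPM in controls and 5.19 ± 1.73 in DKO (adjusted p = 0.126). In the anterior piece the sums were 21.6 to 38.6 CPM and 22.1 to 29.7 CPM, with 3 of 6 at such a p and lower, 0 called by edgeR and 2 (Pax2 and Pax8) by DESeq2. The 5 mesothelium genes summed to 18.6 to 25.6 CPM in posterior controls and 5.13 to 16.2 CPM in posterior DKO, and most of that difference lay in Wt1 (16.4 ± 3.0 and 4.5 ± 4.11 CPM, adjusted p = 0.292). Of the other 2 genes tested, Upk3b differed by 0.81 and Lrrn4 by -0.16 on the log2 scale. In the anterior piece these sums were 8.23 to 17.3 CPM in controls and 2.09 to 5.12 CPM in DKO, without overlap. All 3 genes tested there were lower at an unadjusted p below 0.05 (Wt1 -2.12, Upk3b -1.62 and Lrrn4 -1.03), with 0 called by edgeR and 2 (Upk3b and Wt1) by DESeq2.

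The 12 gut endoderm genes summed to 253 to 285 CPM in posterior controls and 182 to 262 CPM in posterior DKO, and most of that difference lay in Cxcl12, a chemokine (198.5 ± 15.2 and 147 ± 30.0 CPM, adjusted p = 0.316). Gata6, a factor of endoderm and lateral mesoderm, had 12.7 ± 1.84 CPM in controls and 8.05 ± 1.12 in DKO (adjusted p = 0.196), and the endoderm factor Foxa2 had 8.43 ± 1.16 CPM in controls and 10.4 ± 0.882 in DKO (adjusted p = 0.446), and 4 of the 10 genes tested had a log2 fold change above 0. EdgeR called 0 of them and DESeq2 called Cxcl12 and Gata6 as lower. In the anterior piece the sums were 207 to 234 CPM and 150.4 to 189.6 CPM, with 0 called by edgeR and Cxcl12 called as lower by DESeq2. Nkx2-1, a lung and thyroid marker, did not exceed 3 counts in any posterior library. Of 7 neural crest genes, 2 of which (Tfap2a and Tfap2b) are also in the surface ectoderm list, 6 had an unadjusted p below 0.05, as did 13% of all genes, and a higher mean in anterior DKO. EdgeR called 0 of them and DESeq2, which called 296 genes in that comparison, called Erbb3, Foxd3 and Sox10. In the posterior piece 1 had such a p and was lower in DKO. Notochord and primordial germ cell genes had 0 calls by edgeR in either DKO comparison, with 2 and 0 genes at an unadjusted p below 0.05 in the anterior piece and 0 and 1 in the posterior piece, and DESeq2 called Shh in the anterior piece. The part of these cell types in the members' levels was not tested.

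Posterior and anterior pieces were then compared within each genotype. In controls 5 of the 7 members passed the threshold and were higher in the posterior piece, against 12.1% of all genes higher and 25.4% called in either direction. They were Grhl3, Esrp1, Grhl2, Krt8 and Krt18. In DKO embryos 6 of 7 passed as higher, against 8.76% of all genes higher and 18.5% in either direction, Trp63 being the sixth. Tfap2c passed in neither. The median difference of the 7 was 1.02 in controls and 1.30 in DKO, beside -0.01 and 0.01 for all genes. In such bulk pieces, more cells of a type and more RNA per cell cannot be told apart.

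Groups did not overlap for 4 of 7 members in controls, all higher in the posterior piece, where 9.44% of all genes were so, and for 6 of 7 in DKO, where 10.9% were. Grhl3 had the largest difference of the 7 in both genotypes. Its posterior controls were at 7.28, 10.4, 5.15, 6.43 and 5.5 CPM, against at most 1.71 CPM in anterior controls. The difference was 2.37 (SE 0.238, adjusted p = 1.22e-05), a ratio of 5.17. Posterior DKO libraries were at 7.0, 4.78, 9.72 and 5.28 CPM against at most 1.32, a difference of 2.84 (SE 0.337, adjusted p = 0.000228). Within single embryos the posterior level was 3.01 to 6.99 times the anterior one in controls and 5.32 to 11.6 times in DKO.

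Grhl2, the relative of Grhl3 with a wider range over epithelia, was at 4.36, 4.76, 7.16, 3.16 and 5.92 CPM in anterior controls and at 9.32, 12.1, 10.5, 12.4 and 9.62 in posterior controls. The groups were apart, with a difference of 1.10 (SE 0.187, adjusted p = 0.000820). In DKO it was at 5.78, 4.12, 8.32 and 5.70 CPM in anterior and 9.32, 10.8, 11.9 and 9.01 CPM in posterior libraries, a difference of 0.78 (SE 0.195, adjusted p = 0.0179). This call was lost without DKO embryo 1 (adjusted p = 0.0858), 2 (adjusted p = 0.0709) or 4 (adjusted p = 0.0544), while the difference stayed between 0.62 and 0.90.

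Esrp1, the splicing regulator, was also apart in the 2 pieces. Its anterior controls were at 7.59, 9.84, 9.88, 5.17 and 7.06 CPM, all below the lowest posterior control at 16.3. The difference was 1.31 (SE 0.168, adjusted p = 9.32e-05) in controls and 1.50 (SE 0.127, adjusted p = 2.96e-05) in DKO. All 9 embryos had more Esrp1 in the posterior piece, by 1.65 to 4.06 times in controls and 2.38 to 3.46 times in DKO.

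Both keratins were higher in the posterior piece of each genotype, with the larger estimate in DKO. The interaction test above did not call that contrast. Krt8 differed by 1.02 (SE 0.252, adjusted p = 0.00976) in controls and 1.61 (SE 0.203, adjusted p = 0.000344) in DKO. Anterior control replicate 2, at 74.6 CPM, lay above the posterior replicates 3 and 5. Without control embryo 1, whose sex label did not match, the difference was 0.89 and no longer called (adjusted p = 0.0554). Without control embryo 2 it was 1.29 (adjusted p = 0.000151). Krt18 differed by 1.0 (SE 0.204, adjusted p = 0.00282) and 1.30 (SE 0.216, adjusted p = 0.00193), with no overlap in either genotype. Within embryos Krt8 was 1.36 to 3.65 times higher in the posterior piece of controls and 2.28 to 4.09 times in DKO.

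Trp63, the stratification factor, was at 10.9, 10.4, 13.3, 13.9 and 12.8 CPM in posterior controls. Only the third anterior control, at 13.5 CPM, lay among them. The difference of 0.62 (SE 0.222) did not pass (adjusted p = 0.0605). It did with the embryo as a replicate block (0.67, adjusted p = 0.0167), with DESeq2 (adjusted p = 0.0185), with limma-voom (adjusted p = 0.0202), with no filter on low counts (adjusted p = 0.0457), with all 18 libraries in one fit (adjusted p = 0.0290) and without control embryo 3 (0.84, adjusted p = 0.00657), over a range of 0.00657 to 0.224 among alternatives. In DKO Trp63 was at 10.2, 13.9, 15.6 and 13.6 CPM in posterior libraries, above all 4 anterior ones, a difference of 0.73 (SE 0.148, adjusted p = 0.00596). Tfap2c had 5.74 ± 2.08 CPM in anterior and 6.04 ± 1.24 in posterior controls (0.09, interval -0.40 to 0.57, adjusted p = 0.833), and 6.46 ± 2.16 and 7.54 ± 0.561 in DKO (0.23, interval -0.23 to 0.69, adjusted p = 0.525). The ratio of posterior to anterior Tfap2c within embryos was 0.687 to 1.33 in controls and 0.807 to 1.51 in DKO.

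A wider list of 33 surface ectoderm and epithelium genes, without the 7, was read in the same way. In controls 25 of the 32 tested passed the threshold as higher in the posterior piece and 1 as lower, with a median of 1.28. In DKO 22 of 31 passed as higher and 1 as lower, with a median of 1.28. Of all genes 12.1% passed as higher in controls and 8.76% in DKO. Sfn, an epithelial 14-3-3 protein, went from 3.65 ± 0.830 to 12.8 ± 1.57 CPM in controls (1.82, adjusted p = 3.24e-06). Gata3, which is made in ectoderm and in the nephric duct, went from 2.61 ± 0.804 to 11.7 ± 1.51 CPM (2.17, adjusted p = 5.35e-06). Cdh3, which encodes P-cadherin, went from 19.3 ± 0.963 to 57.2 ± 6.28 CPM in DKO (1.57, adjusted p = 2.21e-06).

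Of 15 tight junction and protease genes, among them known targets of grainyhead-like factors, all 13 tested in controls passed as higher in the posterior piece. In DKO 12 of 14 passed as higher, and all 14 had a log2 fold change above 0. F11r, a junction adhesion molecule, went from 30.4 ± 5.48 to 79.5 ± 8.63 CPM in controls, and Spint1, a protease inhibitor of epithelia, from 4.52 ± 1.04 to 16.8 ± 3.14 (1.88, adjusted p = 4.61e-06). The 25 other neural tube closure genes, most of which act in the neural plate, went both ways. In controls 6 passed as higher and 5 as lower, with a median of 0.12. In DKO 8 passed as higher and 4 as lower, with a median of 0.15. Of all genes 12.1% passed as higher and 25.4% in either direction in controls, and 8.76% and 18.5% in DKO. Ptk7, a planar cell polarity receptor, went from 196 ± 8.54 to 437 ± 29.6 CPM in controls, and Prickle1, of the same pathway, from 23.3 ± 2.96 to 85.6 ± 13. Fzd3, a Wnt receptor of that pathway, was lower in the posterior piece of DKO embryos (208.5 ± 2.26 to 120 ± 16.7 CPM).

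Between DKO and control, edgeR and limma-voom called 0 genes of these 3 lists in either region. Genes that DESeq2 called included Wnt6 (a ligand of the ectoderm) and Cldn3 as higher and Shroom3 as lower in anterior DKO, and Shroom3 as lower in posterior DKO. Of the surface ectoderm list, 4 higher and 1 lower of 26 had an unadjusted p below 0.05 in the anterior piece and 5 higher and 1 lower of 32 in the posterior piece, beside 13% and 11% of all genes in either direction. The tight junction list had 2 and 5 such genes, all higher in DKO, of 13 and 14 tested. Its medians were 0.27 and 0.25, and those of the surface ectoderm list 0.17 and 0.16. The neural tube closure list had 4 higher and 2 lower such genes of 25 in the anterior piece and 2 lower in the posterior piece. Cldn6, a claudin of early epithelia, had 50.9 ± 8.64 CPM in posterior controls and 64.5 ± 2.83 in posterior DKO (0.34, adjusted p = 0.388). Shroom3, which drives apical constriction of the neural plate, had 107.9 ± 6.99 and 80.7 ± 11.9 CPM there (-0.42, adjusted p = 0.197).

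Nephric duct genes also passed the threshold as higher in the posterior piece, 6 of 6 in controls and 5 of 6 in DKO. Of all genes 12.1% and 8.76% did so. Apical ectodermal ridge genes mark the thickened ectoderm of the limb bud, and 3 of 7 are also in the surface ectoderm list. Of the ridge genes 7 of 7 passed as higher in controls and 6 of 7 in DKO. Fgf8, which the ridge and the axial bud both make, went from 2.71 ± 0.688 to 21.0 ± 5.41 CPM in controls. Of gut endoderm genes 5 passed as higher and 1 as lower of 9 in controls, and 4 and 1 of 8 in DKO. Mesothelium had 2 higher and 1 lower of 3 in controls and 1 higher of 3 in DKO. Primordial germ cell genes passed as higher for 3 of 5 and 4 of 5, and notochord genes for 2 of 5 in each genotype. Yolk sac genes had 0 calls of 4 in controls and 1 of 5 (Afp, higher) in DKO. Neural crest had 4 and 5 lower of 7. The part of these tissues in the members' regional difference was not tested.

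**Figure D4:**
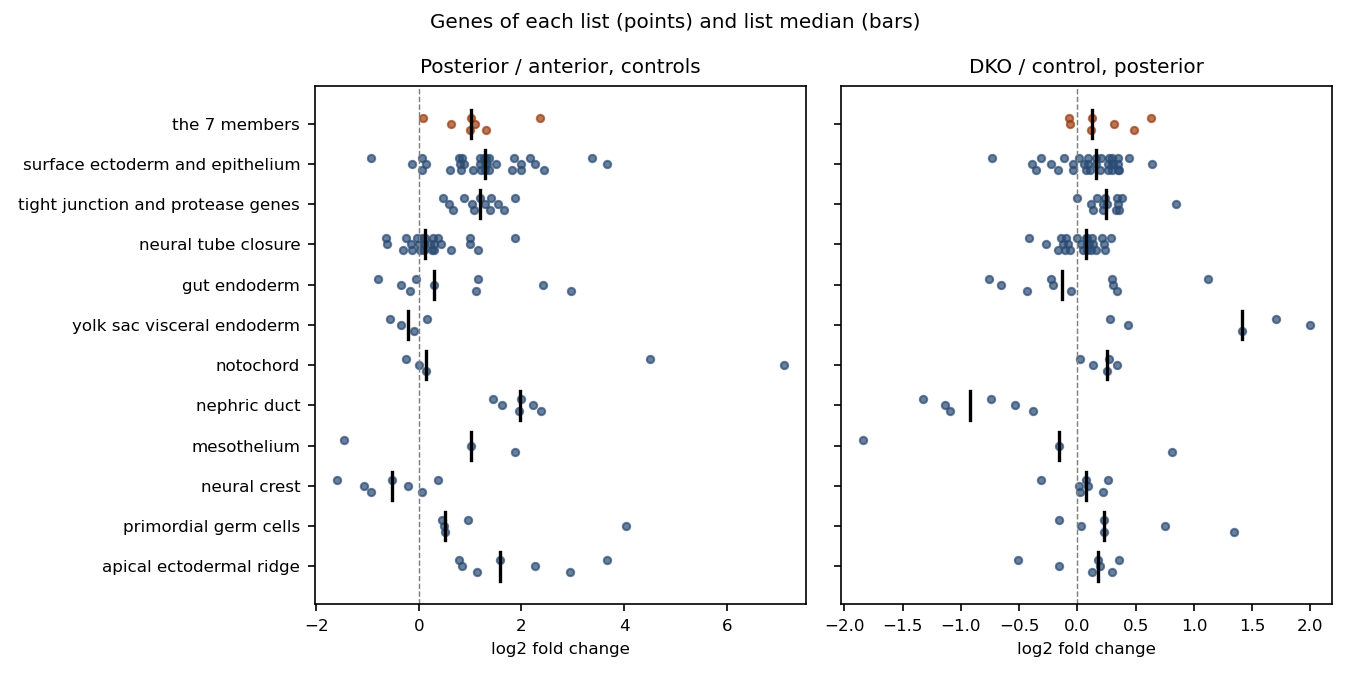
Log2 fold changes (x axis) of the tested genes of each list (points) and the list median (bars), for posterior against anterior pieces in controls (left) and for DKO against control in posterior pieces (right). The surface ectoderm and tight junction lists have medians of 1.28 and 1.19 on the left and 0.16 and 0.25 on the right.

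Within groups, the members varied together from library to library. After the group means were removed, all 21 pairs of members had a positive Pearson correlation over the 18 libraries, which share 9 embryos. Krt8 and Krt18 had the highest, 0.967, and Trp63 and Krt18 the lowest, 0.0418, with a median of 0.601 over the pairs. The same values over pairs of all genes are not given here, so this is not read as particular to the members. The ratio of Krt8 to Krt18 per kilobase stayed between 0.918 and 1.31 over all libraries. In anterior DKO replicate 3 all 7 members were above the mean of their group, and in anterior control replicates 1 and 4 none was. Anterior control replicates 2 and 3 both had 6 above. Replicate 2 stood out in the keratins, with Krt8 0.97 above its group mean on the log2 scale, and replicate 3 in Trp63 (0.83) and Tfap2c (0.74). The share of surface ectoderm that a cut included was not measured.

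**Figure D5:**
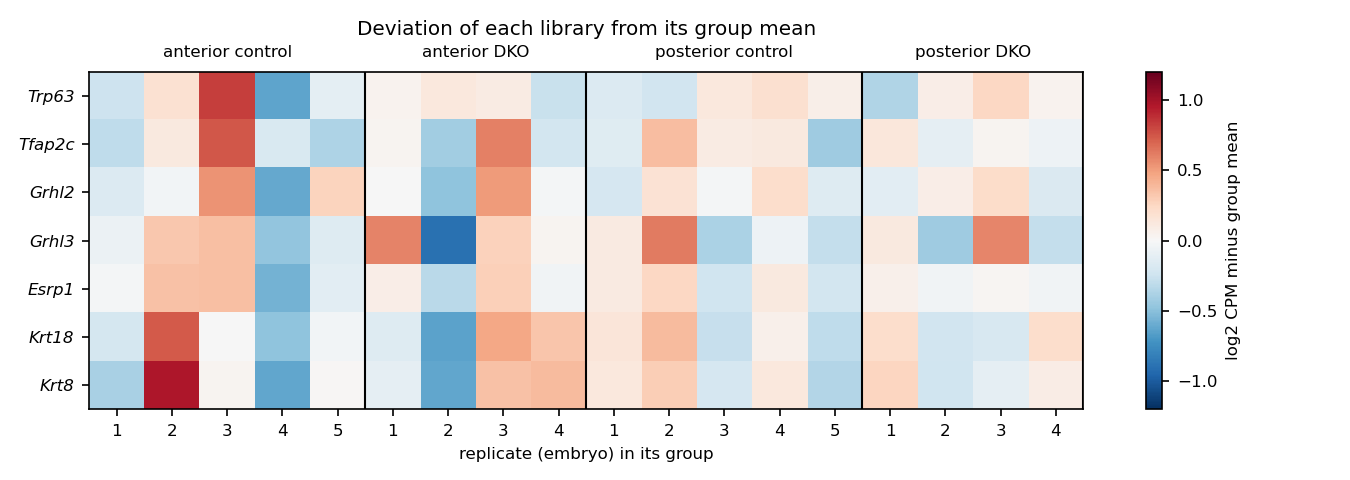
Difference of each library's log2 CPM from the mean of its group (colour), for the 7 genes (rows) and the 18 libraries (columns, replicate number within each group). Columns tend to one colour, such as anterior DKO replicate 3 with all 7 genes above the group mean, and the 2 keratin rows are nearly alike.

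By the same measure, over 11810 genes, and with the members themselves left out of the search, the protein-coding genes most like the mean of the members were Plekhg3 (r = 0.900), Speg (0.892), Hand1 (0.866), Cdh1 (0.863), Evpl (0.861), Vwa2 (0.857), Cldn7 (0.847) and Fam83h (0.844). Cdh1 encodes E-cadherin and Cldn7 a claudin of tight junctions, and Evpl encodes envoplakin of the cornified envelope. Cdh1 is in the surface ectoderm list and Cldn7 in the tight junction list. The others, including the nearest genes Plekhg3, Speg and Hand1, are in none of the lists read here. Hand1 was low and spread widely in the anterior piece, with 3.99 ± 4.24 CPM in controls and 0.674 ± 0.608 in DKO. Cdh1 was at 15.2 ± 4.68 CPM in anterior controls, 18.9 ± 4.60 in anterior DKO, 37.4 ± 5.79 in posterior controls and 43.2 ± 5.20 in posterior DKO. Outside the members, both keratins had the same 3 nearest genes, Cldn6, Prss8 and Clic6, with r of 0.902 to 0.929. Prss8 encodes a membrane-anchored protease of epithelia.

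The other members had separate nearest genes. For Grhl3 these were Arid3b (0.911), Sox13 (0.877) and Prickle1 (0.863), and for Grhl2 Sel1l3 (0.890), Ttll5 (0.833) and Epha1 (0.83). Esrp1 was nearest to Cldn7 (0.887), Plekhg3 (0.849) and Kcnk1 (0.844). The nearest genes of Tfap2c included Vasn (0.866) and Evpl (0.849), and those of Trp63 included Prrx2 (0.827), a transcription factor of limb mesenchyme. The remaining 3 nearest genes of these 2 members, Tbx4, Pitx1 and Hoxd10, had means at the level of the floor in anterior DKO (0.0804, 0.0989 and 0.108 CPM), and nothing is read from their correlations. These correlations are descriptions over libraries that share embryos and dissections.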

How the data were processed

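Poly(A) RNA of 18 libraries from 9 embryos was read from a single end at 61 bases, per the labels. Values are expected counts by RSEM for Ensembl genes, deposited by the authors as one table, made on GRCm38 with CASAVA, cutadapt and RSEM, per the submitters' processing notes, and not scaled between libraries. The use of strand is not given in the sources used here. Identifiers were matched to GENCODE M21 symbols (53360 of 53465).

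Expected counts were rounded and tested in R 4.3.3 with edgeR 4.0.16: filterByExpr (minimum count 10, minimum total 15), TMM scaling, glmQLFit and glmQLFTest, Benjamini-Hochberg adjustment over all genes tested, threshold 0.05. Fits used the groups compared, or all 18 libraries for the interaction. SE is the log2 fold change divided by the square root of F, and intervals are at 95%. Log2 CPM used a prior count of 2, and lengths are exon unions. Floors of 3 counts cover counting error only, since reads carry no molecular identifiers. The code was tested on simulated data.

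Pieces were matched to embryos by genotype, sex label and somite number. After group means were removed, pieces of the same embryo correlated over genes at 0.256 to 0.570 in 9 pairs, and pieces of different embryos at -0.283 to 0.0916. Embryos are separate animals, but the labels give no litter or sequencing batch.

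The members, gene lists and comparisons were chosen with earlier results of these data known. The genes named are the members, Meis1 and Meis2, at most the 3 genes of lowest p per list and comparison, the 8 genes most like the members' mean and the 3 most like each member (mean of at least 50 counts). Afp in single libraries, Nkx2-1, antisense genes and list genes called by DESeq2 were added. Alternatives were DESeq2 1.42.0, limma-voom (limma 3.58.1), RLE and upper quartile scaling, counts left unrounded, terms for somite number and labelled sex, other filters (none, or a mean of 50 counts), a joint fit of the 18 libraries, an embryo block, and leaving out each embryo.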

Additional observations from a re-analysis of the deposited data

Results flagged for a closer look

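Krt8 in anterior control replicate 2, at 74.57 CPM, stood apart from the other 4 anterior controls: its gap to the nearest was 0.716 of the group's range. It was the only such library among 28 groups of values (7 genes in 4 groups), and chance gives about 1 in 20 groups. The same library had the highest summed level of yolk sac endoderm genes in the anterior piece, 27.2 CPM, and the highest Krt18 of its group, 43.9 CPM.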

How the results depend on the processing

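Among single values of the 7 members under each alternative, 536 kept direction and side of the threshold, 19 changed sign, 7 passed only under the alternative and 4 only in the reported fit. The sign changes all came from leaving out 1 embryo, with ranges of -0.13 to 0.26 for Trp63, -0.061 to 0.40 for Tfap2c, -0.091 to 0.39 for Krt8 and -0.19 to 0.031 for Esrp1 in the anterior DKO comparison, -0.29 to 0.12 for Grhl3 in the posterior one, and -0.11 to 0.30 for Trp63 and -0.073 to 0.36 for Tfap2c in the difference between regions. Counts over all genes moved more. Anterior DKO calls went from 6 to 296 with DESeq2, 29 with limma-voom, 83 with no filter, 88 with covariates and 19 with all 18 libraries, and to 1 to 57 without 1 embryo. Posterior DKO calls went from 2 to 162, of which 1 was a member (Krt8), with DESeq2, 14 with no filter, 1 with a mean-of-50 filter and 51 with all libraries, and to 2 to 24 without 1 embryo. Region calls in DKO went from 2913 to 1728 to 2550 without 1 embryo. Calls for the difference between regions went from 0 to 10 with DESeq2 and 0 to 1 without 1 embryo. The cause was not tested, except that leaving out an embryo leaves fewer samples. With the replicate block, calls between regions numbered 5136 in controls (3884 without it), 3004 in DKO and 0 for the interaction. Among members the block changed only the call of Trp63 in controls (0.67, adjusted p = 0.0167). At the lowest depth 3 counts equal 0.237 CPM, which limits Grhl3 in anterior pieces most.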
